A study of Mus musculus with 8 samples.

Results

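The genes described here are those of the mitochondrial respiratory chain and of ATP synthase, together with the assembly factors that share their names, in the olfactory bulb of mice exposed to diesel exhaust after different rearing. Members were chosen by gene name alone: every noncontrol probe whose gene name on the array begins with Nduf, Uqcr, Atp5 or Cox4 to Cox8, or is *Sdha*, *Sdhb*, *Sdhc*, *Sdhd* or *Cyc1*. This gave 91 gene names of the 34797 on the array, on 144 spots and 135 probes. Of these, 90 genes had at least 1 spot that was well above background on all 8 arrays, with no outlier flag on any and with a GenBank or RefSeq accession, among 16486 genes in all that passed the same criteria. The exception was *Cox8c*, an isoform of a small subunit of cytochrome c oxidase, whose probe was not well above background on any array. The 90 genes comprised 7 core and 29 accessory subunits of complex I, 4 subunits of complex II, 9 of complex III, 19 of complex IV, 15 of ATP synthase, 4 assembly factors of complex I and 3 further genes.

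Groups followed the labels. C57BL/6J dams and pups were kept in a standard cage (C) or with environmental enrichment (EE), a larger cage with a running wheel, a house, blocks and tubing, up to weaning on postnatal day 27 and under the same condition afterwards. From postnatal day 28 to 55, over 28 days and 8 h per day, the offspring stayed in a chamber with clean air (C-C and EE-C) or with diesel exhaust at 90 µg/m3 (C-DE and EE-DE). The olfactory bulbs of male mice were taken at 56 days of age. Per the methods, a pool held RNA of 7 mice in each standard-cage group, of 8 EE-C mice or of 9 EE-DE mice, and each pool was put on 2 arrays. The 2 arrays of a pool therefore measure technical spread only, no variation between mice can be had from them, and no p-value is given. The 4 comparisons were exposure in standard cages (C-DE minus C-C), exposure under enrichment (EE-DE minus EE-C), enrichment in clean air (EE-C minus C-C) and enrichment in exhaust (EE-DE minus C-DE), and values of all 4 are given in this order. Each difference below is the mean of the 2 arrays of one pool minus that of the other on the log2 scale, with its range over the 4 pairings of arrays, and a level is the log2 signal relative to the 75th percentile of the array.

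The respiratory chain passes electrons from NADH (complex I) and succinate (complex II) by way of ubiquinone to complex III, then through cytochrome c to complex IV, which reduces oxygen. Complexes I, III and IV pump protons across the inner mitochondrial membrane, and ATP synthase, called complex V, uses the gradient to make ATP. The complexes hold many different proteins, of which all complex II subunits and most of the others are encoded in the nucleus, and neurons draw most of their ATP from this pathway. The members here are nuclear genes by their names, since the rule holds no mitochondrially encoded subunit.

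The 8 arrays were on 1 slide whose columns separated the rearing environments, so rearing and slide column cannot be told apart. On 7 arrays, between 68.0% and 70.6% of noncontrol spots were well above background, and on the first EE-DE array 56.7% were. All 10 marker genes of olfactory bulb neurons passed on all arrays, which shows that they were detected. All 8 markers of olfactory sensory neurons and 7 of 8 of nasal mucosa supporting cells and glands passed too. Passing therefore cannot tell whether other tissue was present. Between the duplicate arrays of a pool, the SD of the difference over the 90 members was 0.0765 and 0.0543 in the standard-cage pools C-C and C-DE and 0.119 and 0.0722 in the enriched pools EE-C and EE-DE. Over all genes it was 0.162, 0.153, 0.232 and 0.181. Members were bright: 78 of 90 (86.7%) lay in the brightest 25% of genes, so these (4122 genes) are given beside all genes as a second reference. No member spot was saturated. Probe positions follow the mm9 annotation of the array.

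No member differed by 1.5-fold or more in any of the 4 comparisons. Over all genes, 0.649% did so with exposure in standard cages, 0.88% under enrichment, 0.752% with enrichment in clean air and 0.746% in exhaust. The largest difference of a member was −0.39 on the log2 scale, for *Cox7b2* with exposure under enrichment. The members spread less around their median than genes at large, with an SD over the 90 genes of 0.0545, 0.0793, 0.0591 and 0.077 in the 4 comparisons, in the order given above, against 0.133, 0.151, 0.151 and 0.145 over all genes. In the brightest 25% of genes the SD was 0.073, 0.0916, 0.104 and 0.068, so with enrichment in exhaust the members spread more than that reference and in the other 3 comparisons less. Within 0.1 of 0 were 85 of 90 members with exposure in standard cages, 78 with exposure under enrichment, 74 with enrichment in clean air and 81 with enrichment in exhaust. These are 94.4%, 86.7%, 82.2% and 90% of members. Over all genes the shares were 73.3%, 72.0%, 67.6% and 72.0%. In the brightest 25% of genes they were 87.7%, 84.9%, 79.7% and 87.4%, closer to the members in every comparison.

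**Figure D1:**
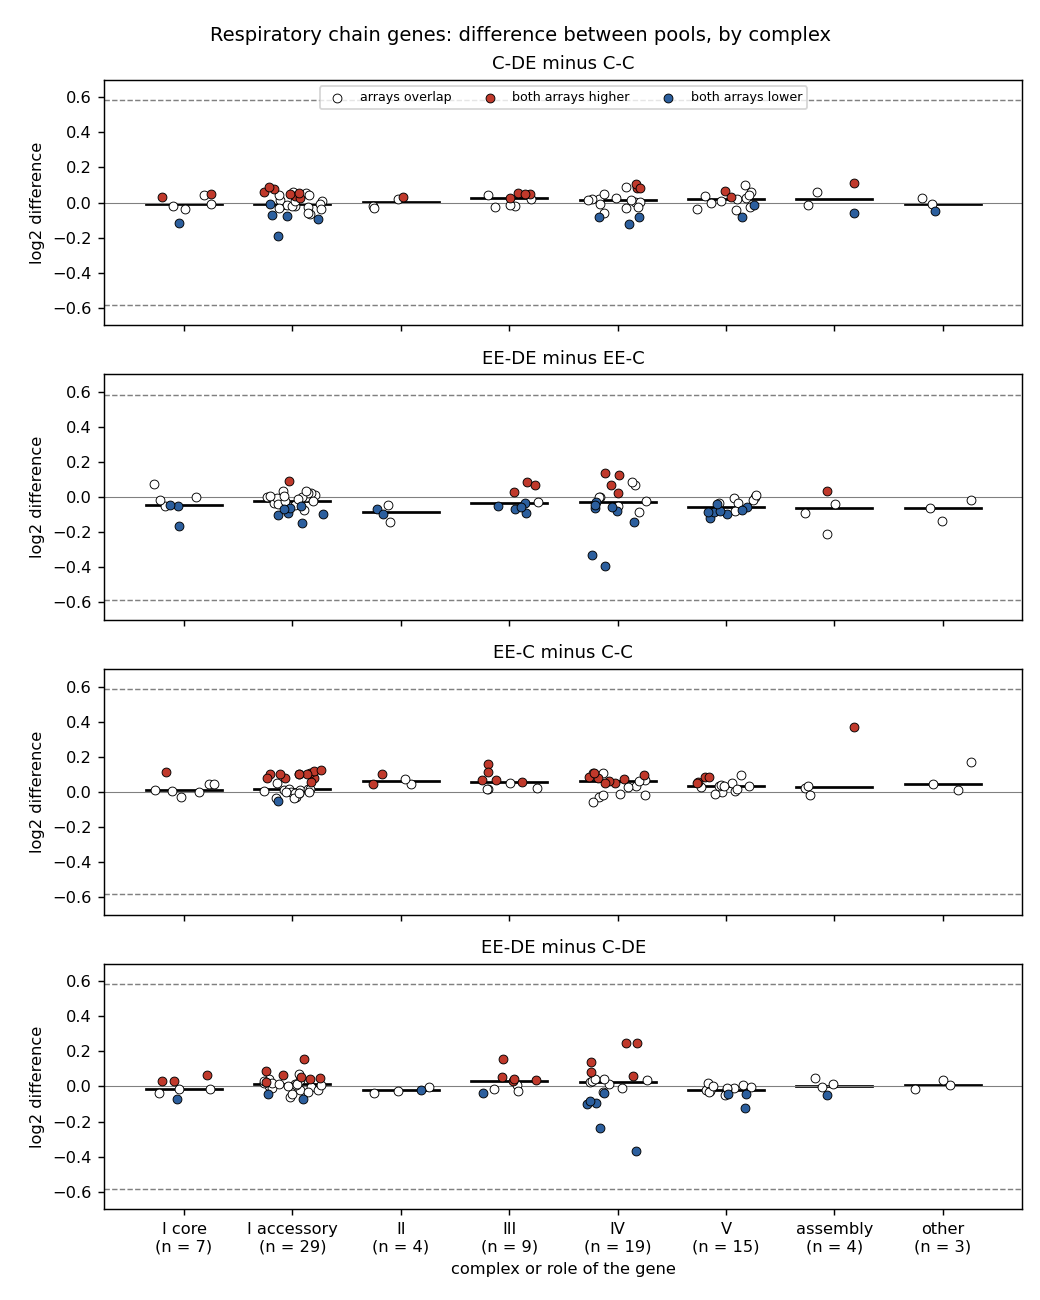
Difference between pools (log2, vertical axis) of each of the 90 respiratory chain genes by complex or role (horizontal axis), in 4 panels for the 4 comparisons. Points are genes, filled red or blue where both arrays of the first pool lay above or below both of the other, short black lines are medians of the role, and dashed lines mark 1.5-fold, which no gene reached.

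With enrichment in clean air, members lay mostly to one side. Their median difference was 0.044 (pairing medians 0.0055 to 0.072), compared with 0.0080 over all genes and 0.019 in the brightest 25% of genes, and 72 of 90 lay above 0. Both EE-C arrays were above both C-C arrays for 33 members (36.7%) and below them for 1, *Ndufa1*. The same was the case for 21% (higher) and 17.7% (lower) of all genes, and for 26.6% and 15.1% of the brightest 25% of genes. Members not overlapping on the high side were thus a larger share than in either reference, while the size of the median shift varied between pairings from 0.0055 to 0.072. The median was 0.020 without the second C-C array and 0.067 without the first, so the second C-C array carried much of it. In pooled tissue RNA, more cells of a type and more RNA per cell cannot be told apart.

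Diesel exhaust was compared with clean air separately in the 2 rearing environments. Under enrichment the median of the members was −0.039 (pairing medians −0.052 to −0.014), with 9 members higher on both arrays and 34 lower. The background was 14.4% higher and 19.7% lower over all genes, and 10.67% and 26.3% in the brightest 25% of genes, against 10% and 37.8% of members. The count of lower members was 19 under quantile normalization, where the median was −0.012, and 51 under normexp background correction, where it was −0.062, so its size rests on the scaling and the background treatment. Without the first EE-C array the median was −0.020. In standard cages the median was 0.011 (pairing medians −0.012 to 0.031) and 20 members were higher and 13 lower, beside 18.2% and 22.2% of all genes. The sign of this median was not settled. It was 0.031 without the first C-C array and −0.016 without the second, and with all arrays −0.0049 under normexp and −0.00077 with the brightest probe of each gene.

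With enrichment in exhaust the members were centred near 0, with a median of 0.0049 (pairing medians −0.0092 to 0.016), which was −0.00042 with the median of passing spots as scale and −0.0013 in the series table. There 20 members were higher and 15 lower on both arrays, against a background of 21.7% and 21% of all genes. Each pool enters 2 of the comparisons. The EE-C arrays in particular stand on opposite sides in enrichment in clean air and in exposure under enrichment, so the surplus of higher members in one and of lower members in the other rest on the same 2 arrays. On single arrays, each gene centred on its own mean over the 8 arrays, the members' median was 0.039 on the first and 0.013 on the second EE-C array, 0.0061 and −0.040 on the C-C arrays, and between −0.012 and −0.0011 on the other 4. The highest and the lowest of these 8 values belonged to the first EE-C and the second C-C array.

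**Figure D2:**
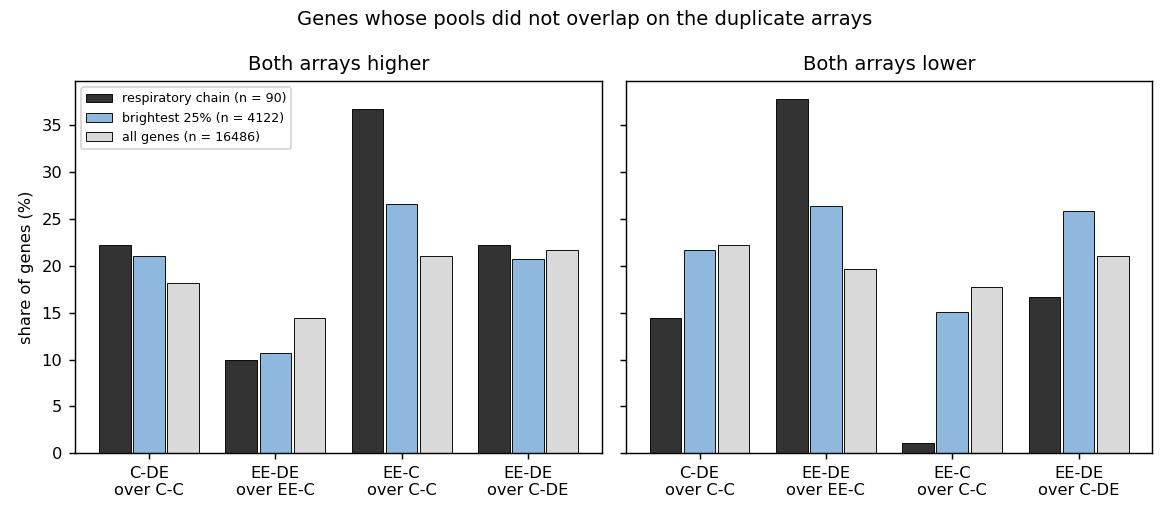
Share of genes (%, vertical axis) for which both arrays of the first pool were above (left) or below (right) both arrays of the other, in the 4 comparisons (horizontal axis), for the 90 respiratory chain genes, the brightest 25% of genes and all 16486 genes. The members lie furthest from both references with enrichment in clean air, with 36.7% higher and 1.11% lower, and with exposure under enrichment, with 37.8% lower.

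Over the 4 comparisons, 145 differences of members had no overlap. With normexp background correction 43 of these did not keep their direction without overlap, of which 5 stood on the other side without overlap: *Atp5b*, *Ndufs3* and *Ndufs7* with exposure in standard cages, *Uqcr10* with exposure under enrichment and *Ndufa1* with enrichment in clean air. With quantile normalization 38 did not and 2 of them reversed, both of *Cox8a*, with exposure under enrichment and with enrichment in exhaust. A difference is called lost below where the arrays overlapped under one of these settings, whose value is then given.

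Complex I takes electrons from NADH, and its 7 nuclear core subunits include those that carry the flavin and the iron-sulphur clusters. *Ndufv1*, which binds NADH and the flavin, was at 5.76 and 5.72 on the C-C arrays, 5.65 and 5.60 on the C-DE arrays, 5.70 and 5.79 on the EE-C arrays and 5.61 and 5.56 on the EE-DE arrays. Both diesel exhaust pools lay below both clean-air pools without overlap. The difference was −0.12 (range over pairings −0.17 to −0.073) with exposure in standard cages and −0.16 (range over pairings −0.23 to −0.097) with exposure under enrichment, while enrichment in clean air gave 0.0025 with overlapping arrays. Its single probe lies at chr19:4007508-4007567. Under normexp the 2 exposure differences were −0.093 and −0.16, and under quantile normalization −0.12 and −0.14.

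The other core subunits differed less, and not in the same pools. *Ndufs3*, a subunit of the arm that reaches into the matrix, was at 5.36 and 5.32 on the C-C arrays, 5.37 and 5.37 on the C-DE arrays, 5.45 and 5.46 on the EE-C arrays and 5.42 and 5.40 on the EE-DE arrays. Its C-C values were the lowest and its EE-C values the highest, with no overlap in any of the 4 comparisons: 0.031 with exposure in standard cages, −0.047 with exposure under enrichment, 0.11 with enrichment in clean air and 0.033 with enrichment in exhaust. The first of these reversed under normexp (−0.027) and the second was lost under quantile normalization (−0.013). *Ndufs7*, which holds the last iron-sulphur cluster before ubiquinone, differed by 0.051 (range over pairings 0.044 to 0.059) with exposure in standard cages and by 0.068 with enrichment in exhaust, both without overlap, and the former was −0.025 under normexp. *Ndufs8* was lower on both arrays with exposure under enrichment (difference −0.045). *Ndufs1*, the largest of the iron-sulphur subunits, overlapped except with enrichment in exhaust, where it was higher by 0.031, and the arrays of *Ndufv2* overlapped in every comparison. Over the 7 core genes the medians were −0.0056, −0.045, 0.013 and −0.013 in the 4 comparisons, in the order given above.

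The 29 accessory subunits surround this core and are needed for its assembly and stability. Their medians were −0.0066 with exposure in standard cages, −0.022 with exposure under enrichment, 0.015 with enrichment in clean air and 0.013 with enrichment in exhaust. With enrichment in clean air, 12 of 29 were higher on both arrays, led by *Ndufc2* (0.12), *Ndufb4* (0.12) and *Ndufb2* (0.11), and *Ndufa1* alone was lower (−0.053), beside the 21% higher and 17.7% lower of all genes. Under normexp *Ndufb4* was lost (0.0043) and *Ndufa1* reversed (0.024). With exposure under enrichment, 8 were lower, among them *Ndufa12* (−0.15) and *Ndufb2* (−0.10), and 1, *Ndufs6*, was higher (0.093), beside 19.7% lower and 14.4% higher of all genes. Quantile normalization lost *Ndufa12* (−0.12) and *Ndufb2* (−0.075). *Ndufs6* was also higher with exposure in standard cages, by 0.053, but under normexp both its exposure differences were lost (−0.030 and −0.023). *Ndufa1* and *Ndufv3* were lower with diesel exhaust in both rearing environments, with differences of −0.078 and −0.048 for *Ndufa1* and of −0.092 and −0.070 for *Ndufv3* in standard and enriched rearing. The enriched value of *Ndufa1* was lost under quantile normalization (−0.021).

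*Ndufab1*, the mitochondrial acyl carrier protein that doubles as a complex I subunit, lay furthest below 0 of all members with exposure in standard cages. Its probe at chr7:129231667-129231726 was dim, at −1.77 and −1.64 on the C-C arrays, −1.90 and −1.90 on the C-DE arrays, −1.87 and −1.61 on the EE-C arrays and −1.64 and −1.84 on the EE-DE arrays. The C-DE arrays were almost equal and below both C-C arrays, whereas the EE-C and EE-DE duplicates were spread over most of the range of the 4 pools. The difference was −0.19 (range over pairings −0.26 to −0.12) with exposure in standard cages, −0.0028 (range over pairings −0.24 to 0.23) with exposure under enrichment and 0.16 (range over pairings 0.054 to 0.26) with enrichment in exhaust.

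Complex II, succinate dehydrogenase, is also an enzyme of the tricarboxylic acid cycle. *Sdha*, which binds the flavin and succinate, was at 4.74 and 4.69 on the C-C arrays, 4.67 and 4.72 on the C-DE arrays, 4.77 and 4.74 on the EE-C arrays and 4.68 and 4.70 on the EE-DE arrays, and *Sdhb*, which carries the iron-sulphur clusters, at 4.93 and 4.92 on the C-C arrays, 4.98 and 4.93 on the C-DE arrays, 5.07 and 4.98 on the EE-C arrays and 4.94 and 4.92 on the EE-DE arrays. For both, the 2 EE-C arrays were the highest of the 8. Both genes were higher with enrichment in clean air, *Sdha* by 0.046 (range over pairings 0.0040 to 0.088) and *Sdhb* by 0.10 (range over pairings 0.053 to 0.15). Both were lower with exposure under enrichment, with differences of −0.068 and −0.095. The 2 probes of *Sdhb* gave 0.093 to 0.11 and −0.17 to −0.017 in these comparisons, and in the latter the arrays of the dimmer probe overlapped. *Sdhc* and *Sdhd*, the membrane anchors, overlapped in both comparisons, with 0.044 and 0.075 with enrichment in clean air and −0.043 and −0.14 with exposure under enrichment, where the first EE-C array read 4.50 and the second 4.25 for *Sdhd*. All 4 genes lay above 0 with enrichment in clean air and below 0 with exposure under enrichment, 2 comparisons that share the EE-C arrays.

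Complex III passes electrons from ubiquinol to cytochrome c. Its members *Cyc1* and *Uqcrc1* gave the clearest order among the pools, and the 60-base probes behind them were as follows, written on the transcript strand in lower case with no part marked.
Cyc1: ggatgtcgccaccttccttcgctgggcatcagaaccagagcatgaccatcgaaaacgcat
Uqcrc1: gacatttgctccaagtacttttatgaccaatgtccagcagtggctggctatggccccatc
The *Cyc1* probe lies on the plus strand at chr15:76175938-76175997 and covers 60 bases of the genome without a gap. The *Uqcrc1* probe, at chr9:108851008-108851487 on the plus strand, spans 480 bases of the genome with 60 bases of sequence and so crosses an intron.

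*Cyc1*, cytochrome c1, holds the haem that hands electrons to cytochrome c. It was at 4.60 and 4.56 on the C-C arrays, 4.60 and 4.66 on the C-DE arrays, 4.76 and 4.71 on the EE-C arrays and 4.68 and 4.69 on the EE-DE arrays. No array of C-C reached any array of the other pools, and both EE-C arrays were the highest. The difference was 0.16 (range over pairings 0.12 to 0.19) with enrichment in clean air, the second largest among members without overlap there, 0.052 (range over pairings 0.0077 to 0.097) with exposure in standard cages, −0.052 (range over pairings −0.075 to −0.028) with exposure under enrichment and 0.052 (range over pairings 0.022 to 0.082) with enrichment in exhaust. Of these 4, the last was lost under normexp, at 0.045 (range over pairings −0.0065 to 0.096).

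*Uqcrc1*, a core protein on the matrix side of the complex, was at 3.32 and 3.34 on the C-C arrays, 3.36 and 3.39 on the C-DE arrays, 3.44 and 3.44 on the EE-C arrays and 3.54 and 3.51 on the EE-DE arrays. The order of the pools, from C-C over C-DE and EE-C up to EE-DE, held without overlap between neighbouring pools. The difference was 0.047 (range over pairings 0.018 to 0.075) with exposure in standard cages, 0.087 (range over pairings 0.071 to 0.10) with exposure under enrichment, 0.11 (range over pairings 0.10 to 0.13) with enrichment in clean air and 0.15 (range over pairings 0.12 to 0.19) with enrichment in exhaust. With normexp background correction the step from EE-C to EE-DE came to −0.0044 and that from C-C to EE-C to 0.23, so the former was lost under that setting. *Uqcrc1* and *Cox7a1*, described below, were the only members higher on both arrays in all 4 comparisons with the scaling used here.

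*Uqcrc2*, the other core protein, was higher on both arrays with enrichment in clean air (0.055) and lower with exposure under enrichment (−0.032), the latter lost under quantile normalization (−0.0065). *Uqcrfs1*, the Rieske iron-sulphur protein, was at 4.58 and 4.57 on the C-C arrays, 4.60 and 4.61 on the C-DE arrays, 4.66 and 4.63 on the EE-C arrays and 4.54 and 4.61 on the EE-DE arrays, with the EE-C arrays the highest. It was higher with exposure in standard cages by 0.028 and with enrichment in clean air by 0.067, and lower with exposure under enrichment (difference −0.065). Normexp lost the first and the second (0.030 and 0.016) and quantile normalization the third (−0.033). *Uqcrh*, the acidic hinge protein, was higher with diesel exhaust in both rearing environments, by 0.049 and 0.071, both lost under normexp (−0.0064 and 0.015). Over the 9 genes of complex III the median was 0.055 with enrichment in clean air with 9 of 9 above 0 and 5 higher on both arrays, and −0.032 with exposure under enrichment with 3 higher and 5 lower. Of all genes 21% were higher in the former and, in the latter, 14.4% higher and 19.7% lower.

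**Figure D3:**
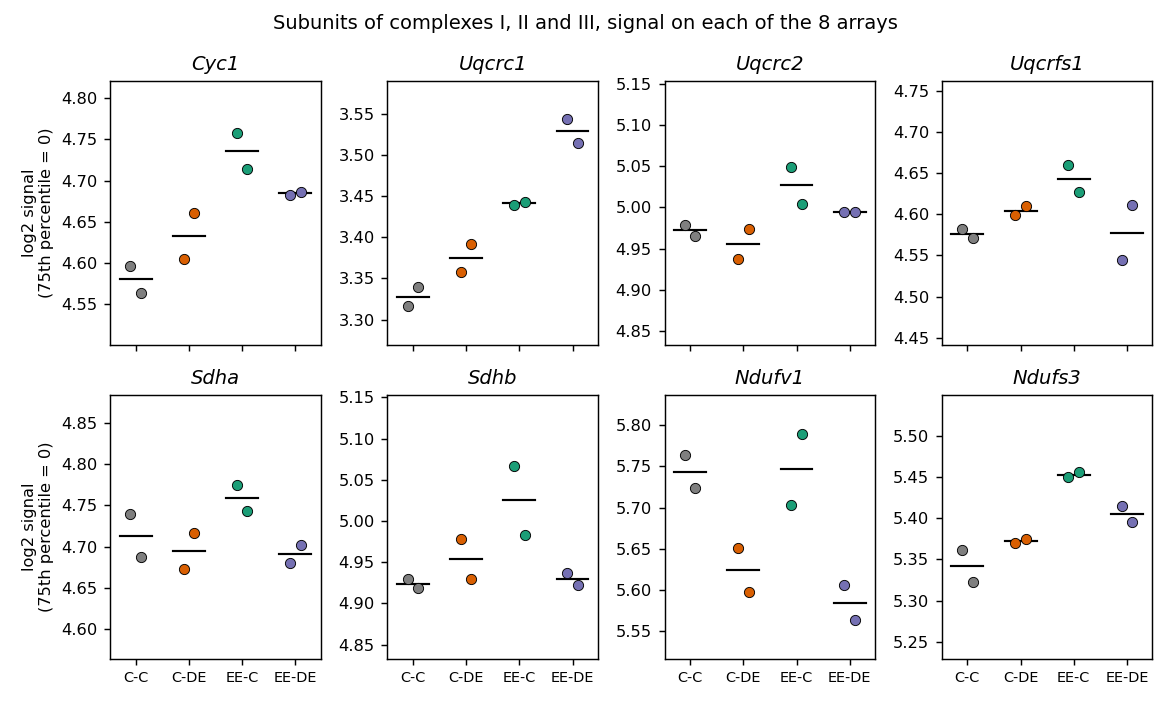
Log2 signal (75th percentile of the array = 0, vertical axis) of 8 subunits of complexes I, II and III on each array (points) with the mean of the 2 arrays of a pool (line), by pool (horizontal axis), every panel spanning 0.32 log2 units. Cyc1 and Uqcrc1 are lowest in C-C, Sdha, Sdhb, Uqcrc2 and Uqcrfs1 have both EE-C arrays on top, and Ndufv1 is lower in both diesel exhaust pools.

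Complex IV, cytochrome c oxidase, has several small subunits that exist as isoforms of different tissues. In both comparisons with the EE-DE pool its 19 genes spread more than those of the other complexes, with an SD of 0.135 with exposure under enrichment and 0.145 with enrichment in exhaust, while in the other comparisons it was 0.0617 and 0.0505, below the 0.0763 and 0.18 of the 4 assembly factors of complex I. The isoforms known from most tissues were bright and differed little. *Cox4i1*, *Cox6a1*, *Cox6b1*, *Cox7a2*, *Cox7b*, *Cox8a* and *Ndufa4* each stayed within 0.105 log2 units in all 4 comparisons. Outside these, *Cox6c* was lower on both arrays with exposure under enrichment (−0.14) and with enrichment in exhaust (−0.080). Quantile normalization lost both (−0.10 and −0.045), and normexp the former (−0.12). *Cox5a* was lower on both arrays in the same comparisons (−0.078 and −0.091). *Cox4i1* was higher on both arrays with exposure in standard cages (0.081), with exposure under enrichment (0.025) and with enrichment in clean air (0.080). *Cox6a1* was higher with exposure in standard cages by 0.10 (range over pairings 0.035 to 0.17) and lower with exposure under enrichment, with a difference of −0.064 (range over pairings −0.12 to −0.0062). The former was lost under normexp (0.051) and the latter under quantile normalization (0.014). *Cox7a2l*, which takes part in joining complexes III and IV into supercomplexes, differed by 0.11 with enrichment in clean air with no overlap, but its 3 probes disagreed there by more than their pairings, from −0.016 to 0.24.

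*Cox4i2*, the alternative form of the subunit made by *Cox4i1*, is known from lung and from pericytes of the brain and responds to hypoxia. It was at −1.20 and −1.40 on the C-C arrays, −1.42 and −1.42 on the C-DE arrays, −1.29 and −1.36 on the EE-C arrays and −1.56 and −1.75 on the EE-DE arrays. The EE-DE arrays were the lowest of the 8 and the C-DE arrays lay below the C-C arrays by a small margin. The difference was −0.33 (range over pairings −0.46 to −0.20) with exposure under enrichment, −0.23 (range over pairings −0.33 to −0.14) with enrichment in exhaust, −0.12 (range over pairings −0.22 to −0.019) with exposure in standard cages and −0.028 (range over pairings −0.17 to 0.11) with enrichment in clean air. *Ndufa4l2*, a paralogue of *Ndufa4* that is likewise known from pericytes and hypoxia, did not go with it: it was higher on both arrays with exposure under enrichment by 0.070 (range over pairings 0.026 to 0.11), which normexp lost (−0.016), and overlapped in the other comparisons. Of 9 markers of pericytes and vascular smooth muscle, all 9 passed, 0 were higher and 4 lower on both arrays with exposure under enrichment, with a median of −0.066, and with enrichment in exhaust 3 were higher and 1 lower. Over all genes 14.4% were higher and 19.7% lower in the former comparison and 21.7% and 21% in the latter. Their summed level (linear, 75th percentile = 1) was 27.9 and 29.6 in C-C, 27.3 and 27.3 in C-DE, 28.7 and 30.2 in EE-C and 27.7 and 28.9 in EE-DE, and their part in the *Cox4i2* difference was not tested.

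*Cox7b2*, a paralogue of *Cox7b* known from testis, had the dimmest probe of all members, at −3.98 and −3.66 on the C-C arrays, −3.83 and −3.64 on the C-DE arrays, −3.53 and −3.90 on the EE-C arrays and −4.27 and −3.94 on the EE-DE arrays. Its 2 EE-DE arrays lay below the EE-C and C-DE arrays, and the first of them, the array with the fewest spots above background, was the lowest. The duplicates of each pool were 0.19 to 0.37 apart, which is up to the size of the differences between pools. The difference was −0.39 (range over pairings −0.74 to −0.040) with exposure under enrichment and −0.37 (range over pairings −0.63 to −0.11) with enrichment in exhaust, and with normexp background correction it came to −0.094 and −0.099, the former with overlapping arrays.

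*Cox6b2*, *Cox6a2*, *Cox7a1* and *Cox8b* are the testis form (*Cox6b2*) and the heart and skeletal muscle forms of subunits whose general forms are *Cox6b1*, *Cox6a1*, *Cox7a2* and *Cox8a*. The probe of *Cox7a1* is shown because the gene lay higher on both arrays in all 4 comparisons.
Cox7a1: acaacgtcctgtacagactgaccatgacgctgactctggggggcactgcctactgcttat
The probe lies at chr7:30970337-30970948 on the plus strand, where its 60 bases span 612 bases of the genome and so cross an intron.

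*Cox6b2* was at −0.58 and −0.65 on the C-C arrays, −0.68 and −0.72 on the C-DE arrays, −0.57 and −0.60 on the EE-C arrays and −0.42 and −0.48 on the EE-DE arrays. The C-DE arrays were the lowest and the EE-DE arrays the highest of the 8, with no overlap between them and any other pool. The difference was −0.082 (range over pairings −0.13 to −0.030) with exposure in standard cages and 0.14 (range over pairings 0.098 to 0.18) with exposure under enrichment, opposite in sign, and 0.25 (range over pairings 0.21 to 0.29) with enrichment in exhaust. Under normexp the first was lost, at −0.023 (range over pairings −0.067 to 0.020). *Cox6b1*, the general form, was at 3.47 and 3.43 on the C-C arrays, 3.50 and 3.45 on the C-DE arrays, 3.39 and 3.57 on the EE-C arrays and 3.52 and 3.58 on the EE-DE arrays, with no overlap only for enrichment in exhaust (0.082).

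*Cox7a1* was at 0.86 and 0.92 on the C-C arrays, 0.96 and 0.99 on the C-DE arrays, 0.97 and 1.00 on the EE-C arrays and 1.14 and 1.08 on the EE-DE arrays. The C-C arrays were the lowest, the EE-DE arrays the highest, and the C-DE and EE-C arrays overlapped each other in between. The difference was 0.080 (range over pairings 0.038 to 0.12) with exposure in standard cages, 0.12 (range over pairings 0.074 to 0.17) with exposure under enrichment, 0.096 (range over pairings 0.051 to 0.14) with enrichment in clean air and 0.14 (range over pairings 0.092 to 0.19) with enrichment in exhaust. With normexp background correction the 2 exposure differences were −0.0041 and 0.011, so they rest on the background treatment, while the 2 rearing differences were 0.083 and 0.098.

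*Cox8b* was at −1.75 and −2.02 on the C-C arrays, −1.93 and −1.95 on the C-DE arrays, −1.66 and −1.89 on the EE-C arrays and −1.75 and −1.63 on the EE-DE arrays. The EE-DE arrays lay above both C-DE arrays, and the duplicates of C-C and of EE-C were spread over most of the range. The difference was 0.25 (range over pairings 0.18 to 0.32) with enrichment in exhaust, and −0.058, 0.084 and 0.11 in the first 3 comparisons. *Cox6a2* was lower on both arrays with exposure in standard cages, with a difference of −0.084 (range over pairings −0.16 to −0.0026), which quantile normalization lost (−0.077), and overlapped elsewhere. Beside these muscle forms, 4 of 10 markers of striated muscle passed, while *Ckm*, *Mylpf*, *Tnnt3*, *Actn3*, *Mb* and *Myh1* did not pass on all arrays. The 4 had a summed level of 0.976 and 1.06 in C-C, 0.961 and 1.03 in C-DE, 1.07 and 1.08 in EE-C and 1.11 and 1.12 in EE-DE, and with enrichment in exhaust 3 of them were higher and 1 lower on both arrays, from −0.18 to 0.50. Whether muscle RNA has a part in these differences was not tested.

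**Figure D4:**
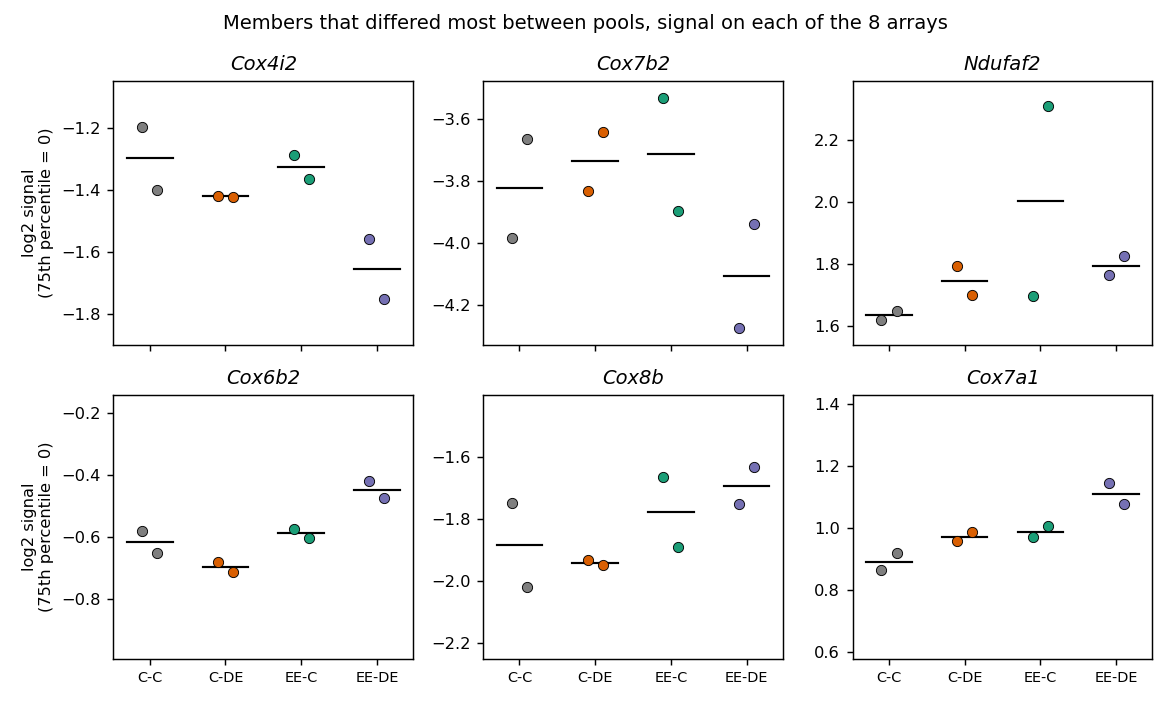
Log2 signal (75th percentile of the array = 0, vertical axis) of 6 selected members on each array (points) with the mean of the 2 arrays of a pool (line), by pool (horizontal axis), every panel spanning 0.85 log2 units. Some members not shown, such as Ndufab1, differed more than Cox7a1. Cox4i2 has both EE-DE arrays lowest, and Cox6b2 and Cox7a1 have both EE-DE arrays highest. The EE-DE mean is lowest for Cox7b2 and highest for Cox8b, but arrays of other pools overlap it. For Ndufaf2, 1 EE-C array lies apart from its duplicate.

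ATP synthase joins a catalytic head, whose main subunits come from *Atp5a1* and *Atp5b*, to a membrane rotor of c subunits, for which *Atp5g1*, *Atp5g2* and *Atp5g3* all encode the same mature protein. With exposure under enrichment the 15 genes had a median of −0.059 (pairing medians −0.077 to −0.016), with 8 lower on both arrays and 0 higher. Over all genes 19.7% were lower and 14.4% higher, and in the brightest 25% of genes 26.3% and 10.67%. *Atp5b* was at 7.36 and 7.34 on the C-C arrays, 7.33 and 7.33 on the C-DE arrays, 7.35 and 7.35 on the EE-C arrays and 7.29 and 7.29 on the EE-DE arrays. Its duplicates differed by at most 0.02, and both EE-DE arrays lay below all the others. The difference was −0.059 (range over pairings −0.065 to −0.052) with exposure under enrichment, −0.016 (range over pairings −0.027 to −0.0057) with exposure in standard cages and −0.041 (range over pairings −0.043 to −0.038) with enrichment in exhaust. The ratio of the pools with exposure under enrichment was 0.960. None of the 3 held under every scaling. With exposure under enrichment *Atp5b* was lost under normexp (−0.028) and quantile normalization (−0.0034), with exposure in standard cages it reversed under normexp (0.039) and was lost at 0.073 under quantile normalization, which also lost the difference with enrichment in exhaust (−0.016).

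*Atp5a1* was at 6.28 and 6.12 on the C-C arrays, 6.25 and 6.35 on the C-DE arrays, 6.32 and 6.28 on the EE-C arrays and 6.21 and 6.15 on the EE-DE arrays, and the C-C duplicates were spread over much of the range of the other pools. It was lower on both arrays in EE-DE, with a difference of −0.12 (range over pairings −0.17 to −0.070) with exposure under enrichment and of −0.12 (range over pairings −0.20 to −0.046) with enrichment in exhaust. The 3 c-subunit genes were all lower with exposure under enrichment without overlap, with differences of −0.093 for *Atp5g1*, −0.083 for *Atp5g2* and −0.081 for *Atp5g3*. *Atp5g1* was higher with exposure in standard cages (0.034), whereas *Atp5g2* and *Atp5g3* overlapped there. Both values of *Atp5g1* were lost, that with exposure under enrichment by quantile normalization (−0.076) and that in standard cages by normexp (0.028). With enrichment in clean air the median of the 15 genes was 0.033 with 14 of 15 above 0, and 4 were higher on both arrays and none lower (21% and 17.7% of all genes). With exposure in standard cages, *Atp5o*, which links head and stalk, was lower, with a difference of −0.084 (range over pairings −0.14 to −0.026), and *Atp5d* higher, with 0.064, and both were lost under normexp (−0.047 and −0.019).

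Among the 4 assembly factors of complex I, *Ndufaf2* had the largest difference of any member with enrichment in clean air. It was at 1.62 and 1.65 on the C-C arrays, 1.79 and 1.70 on the C-DE arrays, 1.70 and 2.31 on the EE-C arrays and 1.76 and 1.83 on the EE-DE arrays. The second EE-C array stood 0.61 above its duplicate, the widest gap between duplicates of any member and the only one past 1.5-fold, and the first EE-C array lay close to the C-DE arrays. The difference was 0.37 (range over pairings 0.048 to 0.69) with enrichment in clean air and 0.11 (range over pairings 0.051 to 0.17) with exposure in standard cages, and the former was lost under normexp at 0.30 (range over pairings −0.028 to 0.63). Without the first EE-C array the member count past 1.5-fold with enrichment in clean air became 1, that gene. *Ndufaf1*, *Ndufaf3* and *Ndufaf4* stayed within 0.1 in every comparison. The remaining 3 genes share a prefix of the rule but were grouped with neither the subunits nor the assembly factors. The RefSeq table names the accessions of *Atp5s*, *Atp5sl* and *Cox4nb* as Dmac2l, Dmac2 and Emc8. *Cox4nb* encodes a subunit of a complex of the endoplasmic reticulum. The arrays of these 3 genes overlapped in 11 of 12 comparisons, the exception being *Atp5sl* with exposure in standard cages (−0.049), lost under normexp (−0.024). Removing assembly factors and these 3 left 83 subunits with medians of 0.012, −0.039, 0.046 and 0.0049.

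The study asked whether rearing alters the response to diesel exhaust. For each member, the difference in enriched rearing minus that in standard cages was therefore taken. Its median over the 90 members was −0.042, with 27 above and 63 below 0, compared with −0.0056 over all genes and −0.020 in the brightest 25% of genes. Over the 16 combinations of arrays the members' median ran from −0.081 to 0.0018, so it is no larger than the spread between duplicate arrays. All 4 genes of complex II lay below 0, with a median of −0.086, and 13 of 15 of ATP synthase, with a median of −0.049. Without overlap in either environment, 10 members differed in the same direction in both (9.55% of all genes did) and 8 in opposite directions (4.32% of all genes). The 10 were *Atp5b*, *Cox4i2*, *Ndufa1*, *Ndufv1* and *Ndufv3*, lower with diesel exhaust, and *Cox4i1*, *Cox7a1*, *Ndufs6*, *Uqcrc1* and *Uqcrh*, higher. With normexp 5 of these 10 (*Cox4i1*, *Cox4i2*, *Ndufa1*, *Ndufv1* and *Ndufv3*) and 2 of the 8 (*Cyc1* and *Sdhb*) kept both calls, and with quantile normalization 8 and 3 did.

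**Figure D5:**
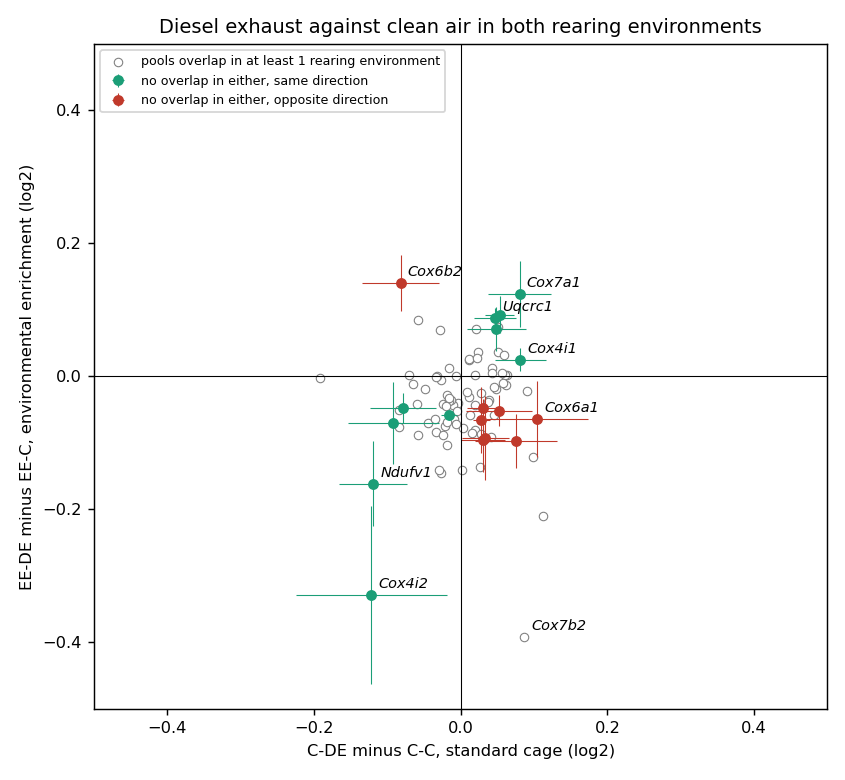
Difference with diesel exhaust (log2) in standard cages (horizontal axis) and with environmental enrichment (vertical axis) for the 90 members. Bars are ranges over the 4 pairings of arrays and are drawn for the 18 members without overlap in either environment, 10 in the same direction (green) and 8 in opposite directions (red).

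Genes of the same pathway were read from lists outside the membership rule. The mitochondrial ribosome, whose proteins make the mitochondrially encoded subunits, had 75 of 76 genes passing, and with enrichment in clean air 42 were higher and 2 lower on both arrays, with a median of 0.059 (21% and 17.7% of all genes were higher and lower). With exposure under enrichment they were 12 higher and 21 lower, with a median of −0.016 (14.4% and 19.7% of all genes). With enrichment in exhaust 29 were higher and 7 lower (median 0.028), and with exposure in standard cages 25 and 18 (median 0.0079). Of 13 enzymes of the tricarboxylic acid cycle and pyruvate dehydrogenase, 7 were higher and none lower with exposure in standard cages (median 0.064, beside 18.2% and 22.2% of all genes), and 1 was higher and 5 lower with exposure under enrichment (median −0.026). With enrichment in clean air 6 of them were higher and 1 lower, and with enrichment in exhaust 2 higher and 7 lower (median −0.025, beside 21.7% and 21% of all genes). Glycolysis, which feeds the cycle, had 6 of 11 genes higher and none lower with enrichment in clean air (median 0.049) and none higher and 5 lower with exposure under enrichment (median −0.041). With enrichment in exhaust 0 of its genes were higher and 5 lower (median −0.036). Of 7 carriers and porins, 0 were higher and 2 lower on both arrays with exposure under enrichment (median −0.032). With enrichment in clean air 0 were higher and 0 lower (median 0.076). In each of these, 1 gene was past 1.5-fold with overlapping arrays (0.88% and 0.752% of all genes). With exposure in standard cages 2 were higher and 0 lower, and with enrichment in exhaust 1 and 2.

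*Cycs*, cytochrome c, which carries electrons from complex III to IV, was higher on both arrays with enrichment in clean air by 0.13 (range over pairings 0.0083 to 0.26) and with exposure in standard cages by 0.077 (range over pairings 0.0038 to 0.15), and differed by −0.11 (range over pairings −0.23 to 0.0071) with exposure under enrichment. Of 9 regulators of mitochondrial biogenesis, 0 were higher and 2 lower on both arrays with enrichment in clean air: *Ppargc1a*, a coactivator of respiratory chain genes, with a difference of −0.092 (range over pairings −0.11 to −0.077), and *Gabpa*, an ETS factor, with −0.076 (range over pairings −0.14 to −0.0076). With 21% of all genes higher and 17.7% lower there, 2 of 9 lower is near the background. With exposure under enrichment 2 were higher and 1 lower, beside 14.4% and 19.7% of all genes: *Ppargc1a* was higher by 0.090 (range over pairings 0.031 to 0.15) and *Gabpa* by 0.19 (range over pairings 0.13 to 0.24), and *Esrra*, a nuclear receptor that acts with *Ppargc1a*, differed by −0.045 (range over pairings −0.084 to −0.0053). With exposure in standard cages *Ppargc1a* was lower, with a difference of −0.067 (range over pairings −0.11 to −0.021), and *Gabpa* and *Ppargc1b*, a relative of *Ppargc1a*, were higher by 0.058 (range over pairings 0.034 to 0.083) and 0.14 (range over pairings 0.0030 to 0.27). With enrichment in exhaust *Gabpa* was higher by 0.053 (range over pairings 0.044 to 0.061), and *Ppargc1b* and *Esrra* were lower, with −0.20 (range over pairings −0.33 to −0.063) and −0.042 (range over pairings −0.084 to −0.00096). *Nrf1* and *Tfam*, the nuclear respiratory factor and the mitochondrial transcription factor, overlapped in all 4 comparisons. The factors for complex IV assembly (10 genes passing) and those for complexes I, II, III and V (11 genes) had medians between −0.030 and 0.033 in the 4 comparisons.

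Marker lists of other cells were set beside these results. With exposure in standard cages, olfactory sensory neuron markers had a median of −0.20, with 0 of 8 higher and 4 lower, and with enrichment in exhaust a median of 0.27, with 7 higher. Of all genes 18.2% were higher and 22.2% lower in the former comparison and 21.7% and 21% in the latter. Supporting cell and gland markers of the nasal mucosa ran further, with −1.08 and 1.59 in the same comparisons. With exposure under enrichment, where 34 members were lower, sensory neuron markers had a median of 0.10 and the supporting cell and gland markers 0.74, with 5 of 7 past 1.5-fold (0.88% of all genes) though their arrays overlapped. Red blood cell markers had −0.21 with exposure in standard cages, −0.038 with exposure under enrichment and 0.22 with enrichment in exhaust, where all 5 were higher on both arrays (21.7% of all genes). With enrichment in clean air the first 2 lists had medians of −0.097 and −0.31, markers of bulb neurons 0.035, of astrocytes −0.0063, of oligodendrocytes −0.020, of microglia 0.0099 and of red blood cells 0.053. The part of these cells in the members' values was not tested.

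Respiratory chain genes are known for promoters rich in CpG that bind nuclear respiratory factor 1 (NRF1) and the ETS factor GABP. RefSeq promoter windows on GRCm38.p6, from 250 bases before to 50 after the start site, were found for 74 of 91 members, with 80 windows in all. The median window held 19.5 CpG dinucleotides and 58.0% G and C, compared with 7 and 52.7% over all 32851 windows. On either strand, the NRF1 palindrome (GCGCA followed by its reverse complement) was in 6 of 80 windows (7.5%) against 0.971% of all, and the wider form (GCGCA, any base, GCGC), which contains it, in 23.75% against 4.60%. The ETS motif CCGGAAG was in 21.25% against 8.86%, the YY1 motif ATGGCGG in 16.25% against 4.05%, the SP1 motif GGGCGG in 42.5% against 35.7% and TATAAA in 10.0% against 13.6%. Among windows with at least 15 CpG, the NRF1 palindrome was in 9.52% of member windows and 2.44% of all, the wider form in 30.2% and 12.0%, the YY1 motif in 19.0% and 8.95%, the ETS motif in 23.8% and 18.9%, the SP1 motif in 49.2% and 76.8% and TATAAA in 6.35% and 4.61%. Against this CpG-rich reference the ETS shares lay closer together, and the order turned for the SP1 motif, which was less frequent in members, and for TATAAA. A match is a description of the letters, and no binding was measured here.

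The 250 bases before the start site are printed for 3 general subunits with the NRF1 palindrome and for the 2 muscle forms *Cox7a1* and *Cox8b*, which have neither form of it. The lack is not particular to muscle forms, since the windows of their general forms *Cox7a2* and *Cox8a* have neither form as well. Capitals mark the palindrome and the wider form.
Cox6a1: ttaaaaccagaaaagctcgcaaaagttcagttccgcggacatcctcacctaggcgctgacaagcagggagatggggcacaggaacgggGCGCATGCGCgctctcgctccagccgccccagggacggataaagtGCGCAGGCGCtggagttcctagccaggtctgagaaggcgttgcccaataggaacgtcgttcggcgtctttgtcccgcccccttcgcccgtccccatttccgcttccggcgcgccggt
Atp5g2: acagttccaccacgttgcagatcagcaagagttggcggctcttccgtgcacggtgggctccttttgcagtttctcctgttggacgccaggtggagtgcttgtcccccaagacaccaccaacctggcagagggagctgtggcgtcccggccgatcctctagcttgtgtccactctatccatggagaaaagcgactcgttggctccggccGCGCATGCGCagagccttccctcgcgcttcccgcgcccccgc
Ndufa11: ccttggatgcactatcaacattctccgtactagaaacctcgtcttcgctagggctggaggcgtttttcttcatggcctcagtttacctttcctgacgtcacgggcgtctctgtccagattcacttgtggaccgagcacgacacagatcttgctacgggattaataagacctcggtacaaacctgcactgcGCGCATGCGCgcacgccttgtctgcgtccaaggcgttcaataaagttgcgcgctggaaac
Cox7a1: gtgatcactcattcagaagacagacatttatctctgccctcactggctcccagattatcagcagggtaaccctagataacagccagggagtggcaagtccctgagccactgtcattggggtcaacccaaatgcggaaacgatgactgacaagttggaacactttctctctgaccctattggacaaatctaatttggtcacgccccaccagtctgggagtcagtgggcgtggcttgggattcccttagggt
Cox8b: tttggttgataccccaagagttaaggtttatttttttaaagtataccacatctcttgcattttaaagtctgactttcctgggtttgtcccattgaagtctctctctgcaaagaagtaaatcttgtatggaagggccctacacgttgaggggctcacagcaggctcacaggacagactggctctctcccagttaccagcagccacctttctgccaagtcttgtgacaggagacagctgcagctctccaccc
They lie at chr5:115348959-115349208 (minus strand), chr15:102671048-102671297 (minus strand), chr17:56717512-56717761 (plus strand), chr7:30183921-30184170 (plus strand) and chr7:140900447-140900696 (minus strand) in the order printed. The palindrome starts 162, 42 and 60 bases before the start site of *Cox6a1*, *Atp5g2* and *Ndufa11*. The stretches of *Cox7a1* and *Cox8b* hold 4 and 1 CpG, and those of *Cox6a1*, *Atp5g2* and *Ndufa11* hold 26, 19 and 20. In the array data, *Cox6a1* is described above, *Atp5g2* differed by −0.034, −0.083, 0.032 and −0.017 and *Ndufa11* by 0.060, 0.0020, 0.10 and 0.044 in the 4 comparisons, in the order given above.

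Several probes measured the same gene for 25 of the 90 members. With exposure in standard cages, the probes of *Atp5l* (−0.093 to 0.089 over 6 probes) and *Ndufb11* (−0.092 to 0.073) lay on opposite sides of 0 by more than their ranges over pairings. The same was seen for *Atp5f1* and *Ndufb5* with exposure under enrichment, for *Cox7a2l* with enrichment in clean air and for *Atp5l*, *Cox8a* and *Uqcrb* with enrichment in exhaust, so the gene means of these members stand for probes that disagree. Both probes of *Atp5k* are placed on chromosome Y by the array's annotation, while RefSeq places the gene on chromosome 5, and the 2 probes of *Cox5b* are placed on chromosomes 1 and 15, and whether these probes also catch related sequences was not tested.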

How the data were processed

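Olfactory bulb RNA of 4 groups of mice, 1 pool each, was measured on 8 one-colour Agilent arrays, 2 per pool. The authors deposited the processed intensity of every spot, from Agilent Feature Extraction 10.7.3.1, which had subtracted the background. The log2 values of the series table, also deposited by the authors, served as an alternative. They were matched to the intensities: after centring, 99.4% of 21711 probes lay within 0.02 on all arrays, and the largest difference was 0.549. The column medians of that table were −0.011 to 0.018.

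Here the 75th percentile over noncontrol spots was subtracted from the log2 intensity of each array. Spots needed a GenBank or RefSeq accession, a signal well above background on all 8 arrays and no outlier flag. Spots were averaged to probes and probes to genes (124 of 135 member probes passed, 65 genes having 1 and 25 several). Of the other 11 probes, 10 had no such accession and 1 was dim. RefSeq names equalled the array's for 86 of 90 members. Pools were compared by the mean of their arrays, at 1.5-fold (0.585 on the log2 scale) and by whether the arrays overlapped. With 1 pool per group no test was possible, the number of arrays limits the precision, and brightness is not comparable between probes.

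Members, lists and tests were chosen with earlier results of these data known. Named are the 5 largest differences without overlap in each direction, the core subunits, the isoform pairs, members with disagreeing probes and genes of the lists, of which 1 gene is not reported here. The alternatives were normexp (offset 50), quantile normalization, scaling to the median of passing spots, the series table, linear means, 4 other filters or probe choices, the brightest 25% of genes, subunits only, 2-fold and 1.2-fold thresholds and leaving out each array. Software was R 4.3.3 (limma 3.58.1) and Python 3.11.15 (numpy 2.4.6, pandas 2.3.3, matplotlib 3.10.9), and the calling was tested on simulated data.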

Additional observations from a re-analysis of the deposited data

Results flagged for a closer look

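For 8 of 90 members, every pairing of arrays placed diesel exhaust on one side of clean air in standard cages and on the other side in enriched rearing, which was the case for 4.32% of all genes (712 of 16486). The difference between the rearing environments was not tested, since each group is 1 pool. Given as the log2 difference in enriched rearing minus that in standard cages, *Cox6b2*, the testis form of a complex IV subunit, had 0.22 and was the one member that lay lower in standard cages and higher in enriched rearing. The other 7 lay higher in standard cages and lower in enriched rearing. These were *Ndufa9* (−0.17), an accessory subunit of complex I, *Cox6a1* (−0.17) of complex IV, *Atp5g1* (−0.13), a c-subunit gene of ATP synthase, *Sdhb* (−0.13), the iron-sulphur subunit of complex II, *Cyc1* (−0.10) and *Uqcrfs1* (−0.093) of complex III, and *Ndufs3* (−0.078), a core subunit of complex I. All 8 values depend on both EE-C arrays, whose duplicates lay further apart than those of the other pools (SD over members 0.119). In standard cages the range over pairings of *Sdhb* came as near to 0 as 0.000194, that of *Atp5g1* as near as 0.0012, and those of *Cyc1*, *Ndufs3*, *Uqcrfs1*, *Ndufa9*, *Cox6b2* and *Cox6a1* as near as 0.0077, 0.0090, 0.016, 0.019, 0.030 and 0.035. With normexp background correction 2 of the 8, *Cyc1* and *Sdhb*, kept both directions without overlap, and *Cox6b2* in standard cages was −0.023 with overlapping arrays. With quantile normalization 3 did, *Cox6b2*, *Cyc1* and *Ndufa9*. *Sdhb* is the mean of 2 probes, of which the brighter differed by −0.026 in standard cages with overlapping arrays and the dimmer by 0.086, so its opposite direction was not seen without overlap on either probe alone.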

How the results depend on the processing

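The 17 summary values (medians of the members, counts past 1.5-fold and counts without overlap) were recomputed under 13 settings that keep all arrays. Of the 195 values so obtained, 181 stayed within the spread over pairings or within 1.5 times of the reported count, and 14 did not. Many of the 181 had little or no room to move. A looser detection flag and keeping outlier spots gave the same member values for all 17. Linear means cannot change a count without overlap, and a count of 0 past 1.5-fold stays 0 at 2-fold. Of the 17 values, 5 moved with normexp and 4 with quantile normalization. With normexp background correction, 20 members were lower with exposure in standard cages, 24 lower with enrichment in exhaust and 0 lower with enrichment in clean air, and exposure under enrichment had a median of −0.062 with 5 members higher. With quantile normalization, exposure under enrichment had a median of −0.012 with 19 members lower, and 2 members were lower with enrichment in clean air and 9 with enrichment in exhaust. With the brightest 25% of genes, 5 of 78 members were higher with exposure under enrichment, and with the brightest probe of each gene, 2 were lower with enrichment in clean air. At 1.2-fold, 2 members were past the threshold with exposure under enrichment, 1 with enrichment in clean air and 1 with enrichment in exhaust. Fewer genes or probes enter by construction with the brightest genes or probes, and the cause of the other shifts was not tested. Of the 145 single differences without overlap, 43 were not kept with normexp and 38 with quantile normalization.

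Leaving out 1 array moved the median of the members between −0.016 and 0.031 with exposure in standard cages, −0.046 and −0.020 with exposure under enrichment, 0.020 and 0.067 with enrichment in clean air, −0.0064 and 0.011 with enrichment in exhaust and, for the difference of exposure effects, −0.065 and −0.020. In both comparisons with C-C the lowest and highest values came from leaving out the second and the first C-C array. Overlap with 1 array on a side is easier to escape, so counts were higher throughout. Members higher numbered 25 to 50 with exposure in standard cages, 17 to 20 with exposure under enrichment, 38 to 64 with enrichment in clean air and 26 to 43 with enrichment in exhaust, and members lower 18 to 41, 45 to 53, 3 to 16 and 24 to 32. Of all genes, 27.7% to 43.3% were higher and 30.4% to 42.8% lower with 1 array left out. Without the second C-C array, 38 of 90 members were higher with enrichment in clean air beside 34.6% of all genes, and 25 with exposure in standard cages beside 33.4%. Past 1.5-fold were 0 to 1 with enrichment in clean air, the 1 being *Ndufaf2* without the first EE-C array, and 0 in the other comparisons.

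No paired analysis was possible because the replicate numbers mark 2 arrays of the same pool and no test was fitted. Signal over background limits the dim isoforms, *Cox7b2* most.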

Other observations

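Across the 4 comparisons, 5 of 90 members overlapped in none, against 4.67% of all genes and 5.58% of the brightest 25% of genes: *Cox7a1*, *Cyc1*, *Ndufa9*, *Ndufs3* and *Uqcrc1*. These were named after their values were seen. With normexp background correction 0 of the 5 and with quantile normalization 4 (without *Ndufs3*) kept all 4 calls. *Ndufa9*, which lies near the ubiquinone site of complex I, was at 3.44 and 3.50 on the C-C arrays, 3.52 and 3.57 on the C-DE arrays, 3.61 and 3.53 on the EE-C arrays and 3.47 and 3.48 on the EE-DE arrays. The 2 EE-C arrays and the 2 C-DE arrays were the highest. The difference was 0.075 with exposure in standard cages, −0.097 with exposure under enrichment, 0.10 with enrichment in clean air and −0.070 with enrichment in exhaust. Under normexp the first was 0.049 and the third 0.033, both with overlapping arrays. Higher in all 4 comparisons were 2 of 90 members, *Cox7a1* and *Uqcrc1*, and 0.576% of all genes. At the other end, 18 members overlapped in all 4 comparisons, as did 20.7% of all genes.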
